A study of Mus musculus with 6 samples.

Results

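Potassium channel genes of the Kcn family were followed through the accessible regions nearest to them while mouse embryonic stem cells left the 2iL state. The members were chosen by position alone: an accessible interval was counted when the nearest end of any protein-coding gene, within 100 kb of its midpoint, was an end of a gene whose symbol starts with Kcn. The rule left out 1 gene of the family, which is not analysed here. It gave 1426 intervals of 258093 in the 3 peak lists (0.553%), at 93 Kcn genes of 21887 protein-coding genes. Intervals that overlapped between the lists by at least 1 bp were merged, which gave 716 Kcn regions of 131410 in all. This assignment does not show that a region acts on the gene. The gene table used has neither exons nor UTRs, so a place inside a gene could not be given more closely.

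Accessible chromatin was measured by ATAC-seq, which uses a transposase to tag the DNA that is not packed away. The cells were E14, a line of mouse embryonic stem cells derived from a blastocyst. The first group was kept in N2B27 medium with 2iL, which combines LIF, a cytokine, with PD0325901, an inhibitor of MEK, and CHIR99021, an inhibitor of GSK3, and the other groups were collected 48 h or 96 h after 2iL had been replaced by N2B27 alone. Each group had 2 samples, A and B, on gelatin-coated plates, but the authors deposited 1 peak list per group for both samples together, and the labels do not say whether A and B were separate cultures. No spread between replicates could therefore be measured, no difference between groups was tested, and no p-value is given. Values in brackets are 95% intervals of a share (exact binomial, by Clopper and Pearson). They hold counting error alone, as if regions near each other were independent.

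Potassium channels let potassium ions cross the membrane along their gradient and so set the resting potential and end the action potential. Voltage-gated channels open on depolarisation, inward rectifiers and 2-pore-domain channels hold the membrane near rest, and calcium-activated channels couple calcium entry to repolarisation. Modifier and auxiliary subunits alter the gating or trafficking of the pore-forming subunits. Many of these genes are best known from neurons, muscle, glia or epithelia, and stem cells also carry some of the currents.

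The starts of 6 genes show some of the patterns seen at these promoters. Starts in no list or in only 1 list are not among them. The 250 bases before each start are printed 5′ to 3′ on the strand of the gene, from RefSeq on GRCm38.p6. Every CpG dinucleotide is in capitals. Kcnj10 and Kcna3 had their starts in all 3 lists. Kcns1, Kcna5 and Kcnmb1 had theirs at 48 h and 96 h but not in 2iL, and Kcnk16 had its start in 2iL and at 48 h but not at 96 h. The stretches are chr1:172340960-172341209 (plus strand) for Kcnj10, chr3:107035912-107036161 (plus) for Kcna3, chr2:164171114-164171363 (minus) for Kcns1, chr6:126535556-126535805 (minus) for Kcna5, chr11:33962763-33963012 (plus) for Kcnmb1 and chr14:20269270-20269519 (minus) for Kcnk16.
Kcnj10: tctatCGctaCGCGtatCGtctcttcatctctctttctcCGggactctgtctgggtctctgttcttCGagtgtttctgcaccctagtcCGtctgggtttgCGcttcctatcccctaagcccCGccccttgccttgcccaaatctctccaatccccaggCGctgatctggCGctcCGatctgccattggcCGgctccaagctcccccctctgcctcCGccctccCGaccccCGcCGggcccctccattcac
Kcna3: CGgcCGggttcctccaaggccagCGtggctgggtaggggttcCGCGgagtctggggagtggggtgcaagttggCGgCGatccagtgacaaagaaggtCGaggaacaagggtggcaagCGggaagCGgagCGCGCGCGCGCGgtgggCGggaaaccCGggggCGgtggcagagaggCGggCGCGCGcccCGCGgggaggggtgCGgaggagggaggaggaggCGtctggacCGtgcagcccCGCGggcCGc
Kcns1: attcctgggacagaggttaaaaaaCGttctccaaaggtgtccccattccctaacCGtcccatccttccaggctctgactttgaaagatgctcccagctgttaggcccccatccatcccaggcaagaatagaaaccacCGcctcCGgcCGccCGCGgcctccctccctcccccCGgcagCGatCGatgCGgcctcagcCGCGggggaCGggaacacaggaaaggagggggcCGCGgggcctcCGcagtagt
Kcna5: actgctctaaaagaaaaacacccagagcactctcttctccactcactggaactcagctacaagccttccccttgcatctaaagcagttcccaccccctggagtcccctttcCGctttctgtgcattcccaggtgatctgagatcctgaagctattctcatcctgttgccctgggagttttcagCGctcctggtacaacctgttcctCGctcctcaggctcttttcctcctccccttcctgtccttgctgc
Kcnmb1: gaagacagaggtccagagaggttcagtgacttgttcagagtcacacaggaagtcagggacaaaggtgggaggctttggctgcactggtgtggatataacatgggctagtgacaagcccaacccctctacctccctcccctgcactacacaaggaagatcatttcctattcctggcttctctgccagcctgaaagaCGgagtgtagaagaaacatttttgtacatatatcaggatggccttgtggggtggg
Kcnk16: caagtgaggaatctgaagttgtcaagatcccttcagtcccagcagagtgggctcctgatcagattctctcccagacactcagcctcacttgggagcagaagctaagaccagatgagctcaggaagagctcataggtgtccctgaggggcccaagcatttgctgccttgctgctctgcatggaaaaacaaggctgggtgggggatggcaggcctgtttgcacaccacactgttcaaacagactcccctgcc
They held 17, 31, 17, 3, 1 and 0 CpG dinucleotides in that order. The start with the most and the start with none thus had opposite patterns at 96 h, but Kcns1, absent in 2iL, had as many CpG as Kcnj10, which was listed throughout.

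The Kcn genes together took up a slightly larger part of each later list. They had 455 of the 91228 intervals in 2iL (0.499%), 511 of 88810 at 48 h (0.575%) and 460 of 78055 at 96 h (0.589%). The most intervals were thus at 48 h, although the 2iL list was the longest. Every one of the 93 genes had at least 1 region, with a median of 6 and a range of 1 to 38, against a median of 3 over all protein-coding genes. Kcn genes were also longer, with a median of 32.5 kb against 17.2 kb. The 3 genes with most regions, Kcnj6, Kcnn3 and Kcng3, held 90 of the 716 (12.6%).

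Kcn intervals covered 347, 391 and 345 kb in 2iL, at 48 h and at 96 h. Their median widths were 689, 663 and 663.5 bp. The fold enrichment at the strongest summit of an interval, which is the authors' value and is used here only to describe regions within their own list, had medians of 8.81, 7.92 and 8.54. The background tags per position recovered from the lists, a measure of depth, were 14.2, 15.18 and 13.99, so the 48 h list rested on 1.085 times the background of the 96 h list; its part in the counts was not tested. Regions for 8 markers of embryonic stem cells, within 1 kb of a gene end, were listed at 7 in 2iL and at 8 later (Esrrb was the exception). Such regions were also present at 2, 2 and 3 of 4 fibroblast markers, at 2, 3 and 3 of 3 extraembryonic endoderm markers and at 2, 2 and 1 of 3 trophoblast markers in the 3 lists. A listed end does not show that a gene is expressed, and whether other cells added to the Kcn regions was not tested.

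Of the 716 Kcn regions, 267 were in all 3 lists (37.3%, against 35.9% of all regions). Regions found only in 2iL numbered 108 (15.1% against 20.8%), only at 48 h 83 (11.6% against 10.5%) and only at 96 h 92 (12.8% against 10.5%). Another 69 were shared by 2iL and 48 h, 87 by 48 h and 96 h, and 10 by 2iL and 96 h. The shares of all regions given here also count regions over 100 kb from any gene end, which the Kcn set cannot hold. Within 100 kb, 13213 of 17617 regions up to 1 kb from an end were in all 3 lists, and 30259 of 96217 beyond it. Over both parts together, that share lies above the 37.3% of Kcn regions. Kcn regions in all 3 lists were the stronger ones, with median folds of 9.54, 9.90 and 10.4 in 2iL, at 48 h and at 96 h. Those of 1 list had medians of 6.96 in 2iL, 5.50 at 48 h and 6.35 at 96 h. Regions in all 3 lists also lay closer to genes, with a median distance of 7.0 kb to a gene end, against 18.1 kb for regions only in 2iL, 14.5 kb for those only at 48 h and 24.7 kb for those only at 96 h. Over all regions the order was the same, with 7.44 kb in all 3 lists and 21.9, 18.4 and 29.96 kb only in 2iL, at 48 h and at 96 h. These medians of all regions had no limit of distance, whereas Kcn regions lie within 100 kb by the rule, so their heights cannot be compared.

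A region of the earlier list with no overlap in the later list is called lost, and one of the later list with no overlap in the earlier is called gained. Between 2iL and 48 h, 118 of 454 Kcn regions were lost, 26.0% (22.0 to 30.3), beside 33.2% of all regions, and 170 of 506 were gained, 33.6% (29.5 to 37.9), beside 31.2%. From 48 h to 96 h, 152 of 506 were lost, 30.0% (26.1 to 34.2), beside 30.7%, and 102 of 456 were gained, 22.4% (18.6 to 26.5), beside 21.2%. Between 2iL and 96 h, 177 of 454 were lost, 39.0% (34.5 to 43.6), beside 44.9%, and 179 of 456 were gained, 39.3% (34.7 to 43.9), beside 35.5%. Losses and gains were nearly equal in number between 2iL and 96 h, while gains were more numerous up to 48 h and losses after it. The intervals of both losses that start from 2iL lay below the share of all regions at any distance from a gene. The gained shares and the loss after 48 h had intervals that included it. All regions here also count those over 100 kb from any gene end, which the Kcn set cannot hold. Of the 131410, 113834 lay within 100 kb, and their shares were computed only in 2 parts, split at 1 kb from an end. From 2iL to 96 h, 1639 of 14964 within 1 kb were lost, and 32911 of 65175 beyond it. Gains were 1745 of 15070 and 20286 of 52550. Over both parts together, the lost and gained shares lie below 44.9% and 35.5%. The Kcn loss interval from 2iL to 96 h then includes the lost share, and the Kcn gain interval lies above the gained share. With both sets limited to 20 kb, losses from 2iL were 22.6% (17.9 to 27.9) by 48 h, beside 26.6%. By 96 h they were 32.9% (27.4 to 38.7), beside 37.5%, and gains 30.7% (25.3 to 36.5), beside 27.0%. These 20 kb intervals included the shares of all regions.

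Counted by gene, 41 of the 93 Kcn genes had more regions at 96 h than in 2iL (44.1%), 30 had fewer (32.3%) and 22 had the same number. Over all 18246 genes with a region, 24.5% had more and 44.8% fewer. The larger number of regions per Kcn gene was not accounted for in this comparison. When only the top 25% of a list by fold was taken, Kcn losses from 2iL to 96 h were not low: 33 of 119 regions were lost, 27.7% (19.9 to 36.7), against 22.0% of all strong regions. Strong gains were 14 of 90, 15.6% (8.77 to 24.7), against 12.1%. The low share of losses was therefore not seen among the strongest regions.

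**Figure D1:**
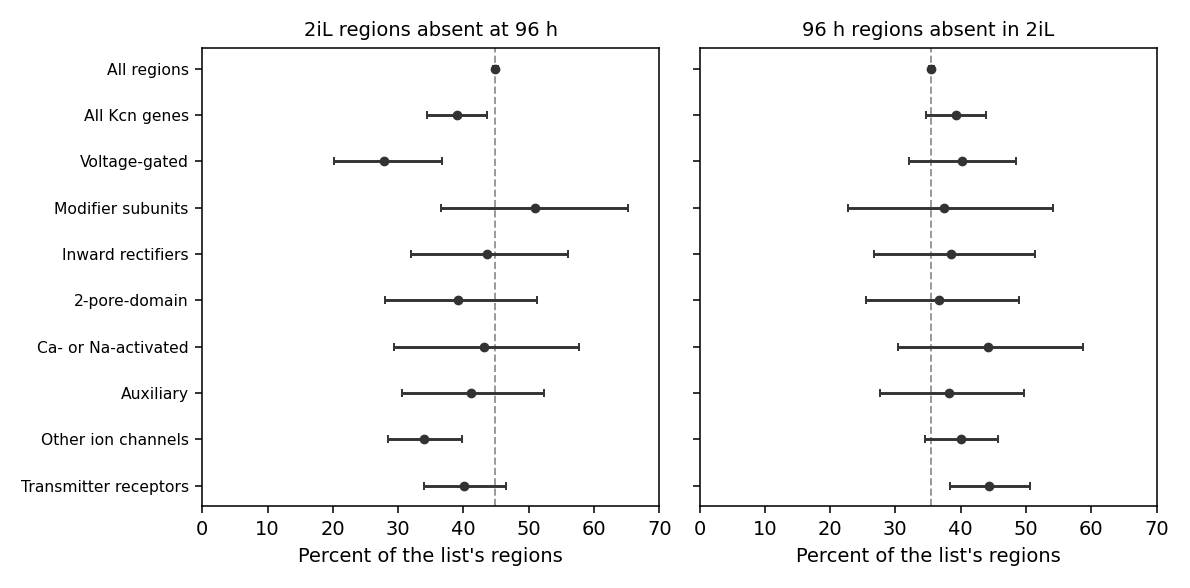
Percent of 2iL regions absent at 96 h (left) and of 96 h regions absent in 2iL (right), by family of Kcn gene and for other channels and transmitter receptors; points are shares, bars exact binomial 95% intervals, and the dashed line is the share of all regions. Voltage-gated genes had the lowest lost share, 27.9%, and the gained shares of the 6 Kcn families lay between 36.6% and 44.2%. The share of all regions also counts those over 100 kb from any gene end.

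The pore-forming voltage-gated genes (Kcna, Kcnb, Kcnc, Kcnd, Kcnh and Kcnq; 29 genes, 207 regions) had 122 regions in 2iL, 153 at 48 h and 147 at 96 h. By 96 h, 34 of the 122 were lost, 27.9% (20.1 to 36.7), beside the 44.9% of all regions. Gains made up 59 of the 147, 40.1% (32.1 to 48.5), beside 35.5%. More regions at 96 h than in 2iL were seen at 18 genes, fewer at 7 and equal numbers at 4. Leaving out regions within 1 kb of a gene end, 34 of 96 were lost, 35.4% (25.9 to 45.8), beside 50.5% of all regions over 1 kb from an end. Between 2iL and 48 h, 53 of 153 regions were gained, 34.6% (27.1 to 42.7), near the 31.2% of all regions, and 22 of 122 were lost, 18.0% against 33.2%. Among regions at or above the median −log10 p of their list, 13 of 68 voltage-gated regions were lost by 96 h, 19.1% (10.6 to 30.5), against 27.0% of all such regions, which lies inside that interval. This family was singled out after the shares of all 6 families had been seen, and the differences between families were not tested.

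Kcnd3 (chromosome 3, 105451890 to 105674002), which encodes a pore subunit of the transient A-type current, had 7 regions in 2iL, 7 at 48 h and 15 at 96 h. Of its 19 regions, 9 were found only at 96 h, among them chr3:105529490-105530401 with a fold of 16.7 and chr3:105538457-105539660 with 15.5. The next strongest of its gained regions, chr3:105489365-105490158 with 15.4, had been listed at 48 h with 5.9. All 3 lie inside the gene, between 37.9 and 87.2 kb from its lower end. The regions at its ends were in all 3 lists, so the gain lay away from the ends.

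Kcna5 (chromosome 6), a subunit of the delayed rectifier of heart and vascular muscle, had 7, 11 and 9 regions in 2iL, at 48 h and at 96 h. The region over its start, printed above, was absent in 2iL and had a fold of 16.5 at 48 h and 16.8 at 96 h. It spans chr6:126534577-126535835, and the midpoint of its interval lay 0.26 kb from a gene end. A second strong region, chr6:126486979-126487924, appeared at 96 h only, with a fold of 17.4, 45.1 kb outside the gene. The other gained region at 96 h had a fold of 7.8, and 6 regions at this gene were in all 3 lists. On the same chromosome, Kcna1 had 4, 4 and 7 regions, and Kcna6, which lies beyond Kcna1, had 4, 9 and 7.

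Kcnh2 (chromosome 5), the channel of the rapid delayed rectifier of the heart, had 11, 14 and 12 regions. Of its 14 regions, 10 were in all 3 lists, so most of its regions were kept. Its relative Kcnh7 had only 2 regions, but 1 of them was the strongest gained region of all Kcn genes. It lies 8.2 kb outside the gene, at chr2:62684706-62685701, inside the gene Gca, and was absent in 2iL with folds of 21.5 at 48 h and 23.2 at 96 h.

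The opposite pattern was seen at Kcnb2 (chromosome 1), which encodes a slow delayed rectifier. It had 6 regions in 2iL, 5 at 48 h and 1 at 96 h. Of the 6, 4 were shared by 2iL and 48 h, with folds at 48 h between 5.3 and 12.2. Of the counted regions, the one at its lower end alone remained, with folds of 12.5, 11.6 and 10.4. The gene is 437 kb long, so regions in its middle, over 100 kb from both ends, were not counted. A 96 h interval with a fold of 9.21 lay 101.7 kb from an end of Kcnb2, just past the limit. Within the window, the drop at Kcnb2 thus fell after 48 h.

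The modifier subunits (Kcnf, Kcng, Kcns and Kcnv; 10 genes, 75 regions) do not form channels on their own but join Kcnb subunits. They had 51 regions in 2iL, 57 at 48 h and 40 at 96 h. Of the 51, 26 were lost by 96 h, 51.0% (36.6 to 65.2), and of the 40, 15 were gained, 37.5% (22.7 to 54.2); both intervals include the share of all regions. Only 2 genes had more regions at 96 h, 5 had fewer and 3 had as many.

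Kcng3 (chromosome 17) had 15, 17 and 9 regions so that its count fell after 48 h. Its 21 regions included 6 of 2iL and 48 h alone and 4 of 2iL alone. Among those that stayed, chr17:83645055-83645833 had folds of 12.1, 16.5 and 25.7 in the 3 lists. Kcns3 (chromosome 12) had 5 regions in each list, but they were not the same ones. Its region chr12:11052598-11053463, 37.2 kb outside the gene, had folds of 21.9 and 12.1 in 2iL and at 48 h and was absent at 96 h, whereas chr12:11178062-11179110 on the other side had folds of 24.3, 19.6 and 21.5. A constant count at Kcns3 therefore hid 3 losses and 3 gains between 2iL and 96 h.

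The inward rectifiers (Kcnj; 15 genes, 106 regions) had 71, 67 and 65 regions. Of the 71 in 2iL, 31 were lost by 96 h, 43.7% (31.9 to 56.0), and of the 65 at 96 h, 25 were gained, 38.5% (26.7 to 51.4). Both are near the 44.9% and 35.5% of all regions, which lie inside these intervals. At 5 genes there were more, 4 fewer and 6 as many.

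Kcnj6 (chromosome 16, 94744980 to 94997696), a subunit of the G-protein-gated channels that act downstream of inhibitory receptors, had the most regions of all Kcn genes, with 31 in 2iL and 21 at each later time. Of its regions, 12 were found only in 2iL, all of them inside the gene and with folds between 3.3 and 9.6. Another 4 were shared by 2iL and 48 h, among them chr16:94828082-94828768, with folds of 19.6 and 8.5, and chr16:94809194-94809952, with 19.3 and 14.8. Another 15 were in all 3 lists, including a region at each end of the gene. One of these, chr16:95093561-95094319, lies 96.2 kb outside the gene, near the limit of the assignment, and had folds of 13.8, 22.6 and 28.3, the last being the highest of any Kcn region at 96 h. Of the 5 regions found only at 96 h, 4 lay outside the gene on that side, between 32.0 and 77.2 kb from it. Losses at Kcnj6 were thus inside the gene, and most of the new regions lay beyond its upper end.

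Kcnj5, another G-protein-gated subunit, had 1, 3 and 5 regions, with 4 gained and 0 lost. Kcnj16, a partner subunit in kidney and glia, had 3, 2 and 1, and its region chr11:111043154-111043958 was the strongest lost region of all Kcn genes, with folds of 22.6 and 7.6 in 2iL and at 48 h. Kcnj10, the main glial inward rectifier, had the same 5 regions in all 3 lists, and the region over its printed start had folds of 24.2, 20.8 and 22.7. Kcnj5 and Kcnj16 thus moved in opposite directions while Kcnj10 kept every region.

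The 2-pore-domain channels (Kcnk; 14 genes, 114 regions) had 74, 81 and 71 regions. Of the 74, 29 were lost by 96 h, 39.2% (28.0 to 51.2), and of the 71, 26 were gained, 36.6% (25.5 to 48.9). The shares of all regions, 44.9% and 35.5%, lie inside both intervals. At 4 genes there were more, 5 fewer and 5 as many.

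Kcnk12 (chromosome 17), which codes for a subunit that is silent or nearly so when expressed alone, had 11, 14 and 15 regions. Of its 19 regions, 8 were in all 3 lists, and chr17:87770670-87771333 inside the gene was absent in 2iL with folds of 11.4 at 48 h and 15.7 at 96 h. Kcnk5 (chromosome 14), an alkaline-sensitive channel, had 13, 13 and 10 regions, of which 8 were in all 3 lists. Kcnk3, an acid-sensitive background channel, had 8, 4 and 5, and gained the second strongest of all gained Kcn regions, chr5:30601183-30601902, with folds of 10.1 at 48 h and 18.5 at 96 h. At Kcnk3 a strong gain thus stood beside 5 losses.

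Kcnk9 (chromosome 15), an acid-sensitive background channel that is imprinted and expressed from the maternal allele in brain, had 3, 6 and 6 regions. The 3 regions in all 3 lists had folds at 96 h of 21.7, 24.6 and 9.3, and the 3 regions added by 48 h had folds there between 5.5 and 7.0.

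The calcium- or sodium-activated channels (Kcnma1, Kcnn, Kcnt and the related Kcnu1; 8 genes, 84 regions) had 51, 59 and 52 regions. Of the 51, 22 were lost by 96 h, 43.1% (29.3 to 57.8), and of the 52, 23 were gained, 44.2% (30.5 to 58.7). These intervals also include the 44.9% and 35.5% of all regions. These near-equal totals came from genes that moved in opposite directions.

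Kcnma1 (chromosome 14, 23292288 to 24005110), the large-conductance channel opened by calcium and voltage, had 4 regions in 2iL, 9 at 48 h and 14 at 96 h. Of its regions, 6 were shared by 48 h and 96 h and 5 were found only at 96 h. The strongest at 96 h was chr14:24035265-24036941, 31.0 kb beyond the upper end, with folds of 9.9 at 48 h and 14.0 at 96 h. The region at the upper end was in all 3 lists, with folds of 7.9, 8.0 and 7.2. Its gene body is much longer than the assignment window, so regions in its middle, over 100 kb from both ends, were not counted. Within the window, the count of Kcnma1 was higher at each later time, while its end region was listed throughout.

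Kcnu1 (chromosome 8, 25848627 to 25937943), a channel of the same family known from sperm, had 9, 7 and 1 regions. Of these, 5 were shared by 2iL and 48 h, with folds in 2iL between 6.9 and 13.0. The region that remained, chr8:25909955-25910996, had folds of 22.5, 20.4 and 7.4. Nearly all of the regions at Kcnu1 thus left the list between 48 h and 96 h or before.

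Kcnn3 (chromosome 3, 89520164 to 89672494), a small-conductance calcium-activated channel, had 23, 21 and 17 regions. Of its 31 regions, 13 were in all 3 lists. Its strongest region found only in 2iL was chr3:89654852-89656145, with a fold of 17.8, inside the gene. The strongest at 96 h was chr3:89688520-89689233, 16.4 kb outside the gene, with folds of 14.8, 20.8 and 24.7. Kcnn3 lost 10 of its 23 regions by 96 h, both inside and outside the gene.

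**Figure D2:**
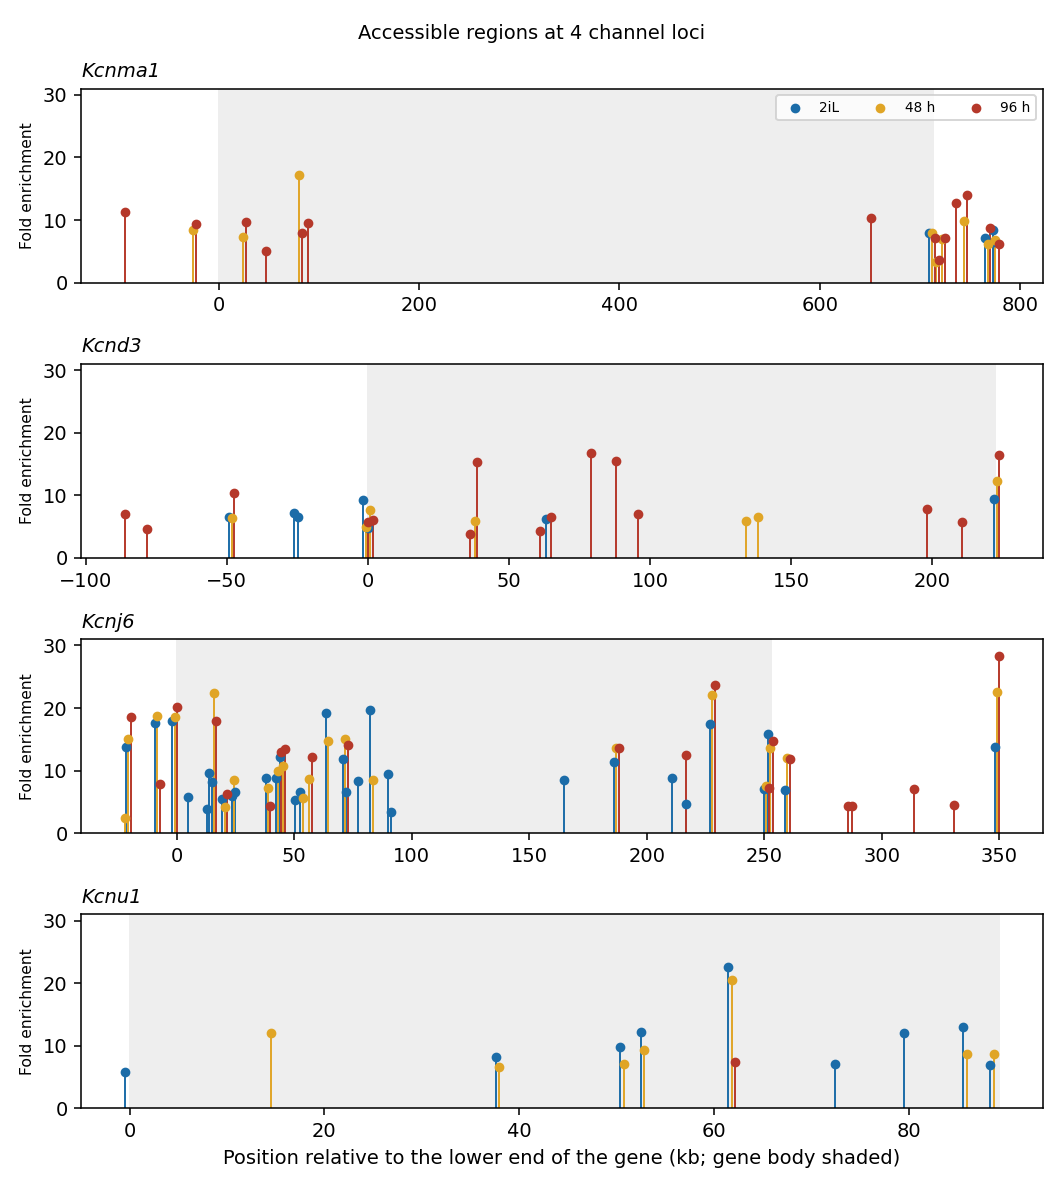
Fold enrichment of each region at Kcnma1, Kcnd3, Kcnj6 and Kcnu1 against its distance in kb from the lower end of the gene, by list (the authors' values, each within its own list; grey, gene body). Kcnma1 and Kcnd3 had most regions at 96 h, Kcnj6 and Kcnu1 in 2iL; the empty middle of Kcnma1 is over 100 kb from both ends and was not assigned.

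The auxiliary genes (Kcnab, Kcne, Kcnip, Kcnmb and Kcnrg; 17 genes, 130 regions) had 85, 89 and 81 regions. Of the 85, 35 were lost by 96 h, 41.2% (30.6 to 52.4), and of the 81, 31 were gained, 38.3% (27.7 to 49.7). Here too the intervals include 44.9% and 35.5%, the shares of all regions. At 8 genes there were more, 7 fewer and 2 as many.

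Kcnip1 (chromosome 11), a calcium-binding subunit of the Kcnd channels, had 8, 12 and 12 regions. Kcnmb1, the beta subunit of Kcnma1 in smooth muscle, had 6, 13 and 11, but the 2 genes overlap and all 14 regions assigned to Kcnmb1 lay inside Kcnip1. The 7 regions that Kcnmb1 gained by 48 h can thus not be told apart from gains of Kcnip1. Together the pair had 14 regions in 2iL and 23 at 96 h. The region over the printed start of Kcnmb1, chr11:33962080-33963631, had folds of 7.7 at 48 h and 7.9 at 96 h and was absent in 2iL.

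Kcnip3, a calcium-binding protein that also acts as a transcriptional repressor, had 7, 9 and 9 regions and lost 0. Its region chr2:127461930-127463021 inside the gene had folds of 21.0, 22.8 and 27.5. Kcnab2, a beta subunit of the Kcna channels, had 4, 10 and 7 regions. Of its 11 regions, 4 were shared by 48 h and 96 h, and 5 lay inside the gene Nphp4.

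Kcne2 (chromosome 16), a small single-pass subunit known from heart and stomach, had 9 regions in 2iL, 1 at 48 h and 2 at 96 h. Of the 9, 7 were found only in 2iL, and these lay outside the gene, between 41.7 and 82.0 kb from it, with folds between 4.2 and 10.2. The region kept in all 3 lists lay 5.6 kb outside the gene, with folds of 9.5, 9.2 and 10.7. The loss at Kcne2 was thus a cluster of distant, weak to moderate regions that was already absent at 48 h.

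Kcnmb4, the beta subunit of Kcnma1 in brain, had 7, 5 and 2 regions, and the 2 that stayed lay at its ends. The one at the lower end had folds of 18.9, 19.4 and 6.9. Kcnrg, which interferes with the assembly of voltage-gated channels, had 11, 8 and 7 regions. Its region chr14:61656344-61657251, 44.0 kb outside the gene, had a fold of 20.7 in 2iL and was listed at neither later time. Kcnmb4 thus moved opposite to Kcnma1, the gene of the pore that it joins.

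**Figure D3:**
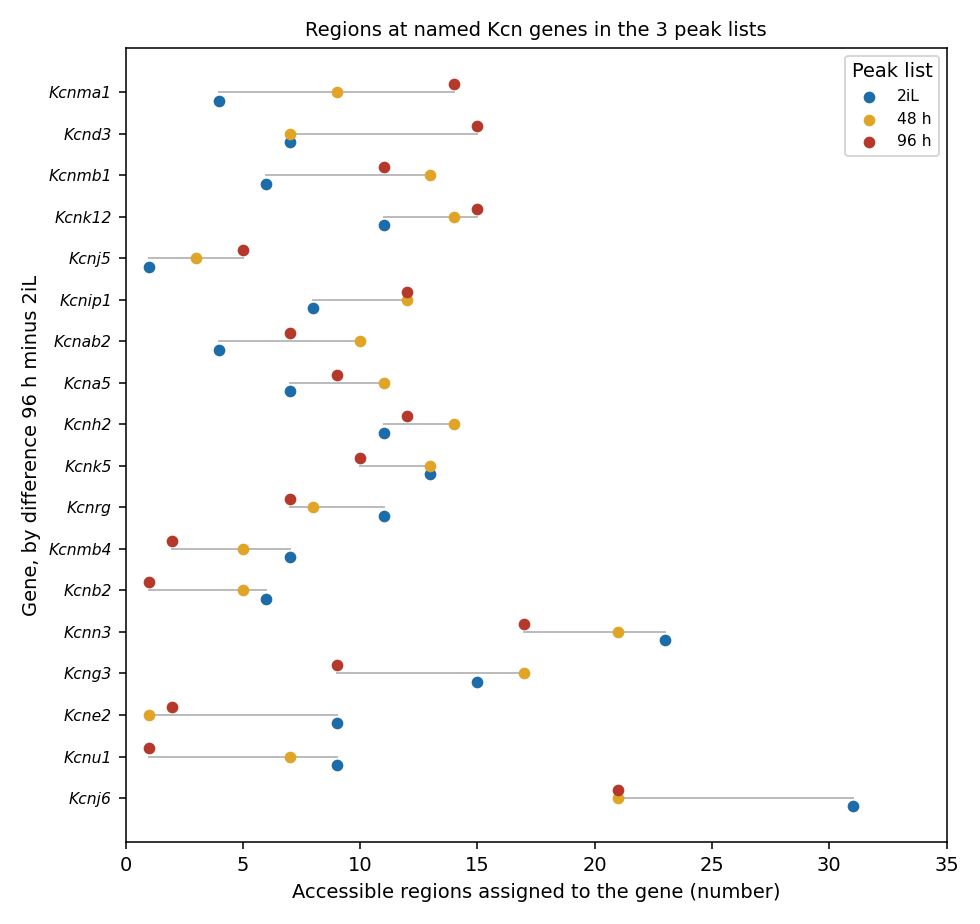
Number of regions in 2iL, at 48 h and at 96 h (coloured points, joined by a line) at 18 of the Kcn genes with the most regions or the largest differences, ordered by the difference between 96 h and 2iL. Kcnma1 went from 4 to 14 regions at one extreme and Kcnj6 from 31 to 21 at the other.

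A few regions were listed at 48 h only and with appreciable strength. The strongest lay inside Kcnmb2, at chr3:31967761-31968561 with a fold of 14.3, and inside the neuronal gene Kcnq3, at chr15:66278530-66279137 with 13.2. Others lay inside Kcng1 (fold 12.2) and Kcnu1 (12.1). The fifth covered an end of Kcnk18, a 2-pore-domain channel of sensory neurons, at chr19:59218826-59220204 with a fold of 10.4. Of the 5, 4 were inside a gene and over 1 kb from its ends.

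The ends of Kcn genes were listed more often after 2iL was withdrawn. A gene end counted as listed when the midpoint of an interval lay within 1 kb of it, and either end of a gene could meet this, since strand was known only for genes in the table of starts. The 2iL list held at least 1 end of 61 of the 93 genes (65.6%), the 48 h list of 69 (74.2%) and the 96 h list of 68 (73.1%). Over all protein-coding genes the shares were 64.3%, 66.6% and 65.0%. The height of the Kcn share beside all genes depended on the limit of 1 kb. Within 0.5 kb it was 47, 53 and 54 of the 93 genes, beside 55.8%, 57.9% and 56.8% of all genes. The Kcn share was then the lower one in 2iL and at 48 h. Within 2 kb it was 72, 80 and 74 genes, beside 70.4%, 72.0% and 70.3%. All 3 lists held an end of 56 Kcn genes (60.2% against 60.9%) and none held an end of 20 (21.5% against 30.5%).

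Between 2iL and 96 h, 11 Kcn genes gained a listed end, which is 16.2% of those listed at 96 h against 5.71% over all genes. Among these were Kcna5, Kcnab1, Kcne1l, Kcng4, Kcnip1, Kcnj13, Kcnj14, Kcnk9, Kcnmb1 and Kcns1. At 9 of them the region itself was absent from the 2iL list, and at the other 2, such as Kcnk9, the region was in all 3 lists and only its midpoint had moved. The strongest at 96 h were those of Kcna5, with a fold of 16.8, and of Kcne1l on the X chromosome, with 13.3. Kcnab1, a beta subunit of the Kcna channels, had an end region with folds of 16.5 at 48 h and 7.3 at 96 h.

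A listed end was lost by 4 genes, 6.56% of those listed in 2iL against 4.67% over all genes: Kcnj9, Kcnk16, Kcnrg and Kcnu1. The lost regions had folds in 2iL of 5.73 at Kcnj9, 8.40 at Kcnk16, 5.99 at Kcnrg and up to 14.0 at Kcnu1. That strongest one at Kcnu1 was nearest to an end of the neighbouring gene Ash2l. At Kcnj9 and Kcnrg, whose strand is known, the lost region lay at the end away from the start. The start of Kcnj9 was listed at 48 h only, and that of Kcnrg in no list. Counted by region, 6 of 74 Kcn regions within 1 kb of an end were lost by 96 h, 8.11% (3.03 to 16.8), beside 11.0% of all such regions, and 13 of 81 were gained, 16.0% (8.83 to 25.9), beside 11.6%. Both intervals include the shares of all such regions.

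Starts annotated in the table of promoters gave a similar picture with strand known. The table held 94 start windows of 69 Kcn genes, each of 250 bases before and 50 after the start, and 24 Kcn genes were not in it. Of the 94, 60 overlapped an interval in 2iL (63.8%), 70 at 48 h (74.5%) and 69 at 96 h (73.4%), against 62.0%, 64.7% and 63.9% of 21263 windows of all protein-coding genes. In all 3 lists were 56 windows (59.6%, against 59.8% of all), in 1 or 2 lists 19 (20.2% against 7.21%), and in none 19 (20.2% against 33.0%). The windows with a changing pattern were mostly of 1 kind: 10 were listed at 48 h and 96 h but not in 2iL (10.6% against 2.87% of all windows). They belonged to Kcna5, Kcnab1, Kcne1l, Kcnh2, Kcnh7, Kcnip1, Kcnmb1, Kcnn1, Kcnq5 and Kcns1, and Kcnab1, Kcnip1, Kcnn1 and Kcnq5 had another start that was listed throughout. At Kcnh7 and at this start of Kcnq5 the region over the start was in all 3 lists, but its 2iL interval did not reach the window. The Kcnh2 window, on the minus strand, lies inside the gene. The region at the upper end of Kcnh2 was in all 3 lists, with folds of 7.2, 6.0 and 7.5.

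CpG content differed with the pattern. Windows in all 3 lists held a median of 17 CpG dinucleotides (range 3 to 49), those in 1 or 2 lists 5 (1 to 25) and those in none 4 (0 to 9). The medians over all genes were 22, 7 and 2. Kcn starts listed throughout thus had fewer CpG than other such starts at the median, and the median over all 94 windows was 9 against 13. The printed sequences span this range, from Kcna3 with 31 in its 250 bases to Kcnk16 with none. Windows of 1 gene overlap in some cases and share sequence.

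**Figure D4:**
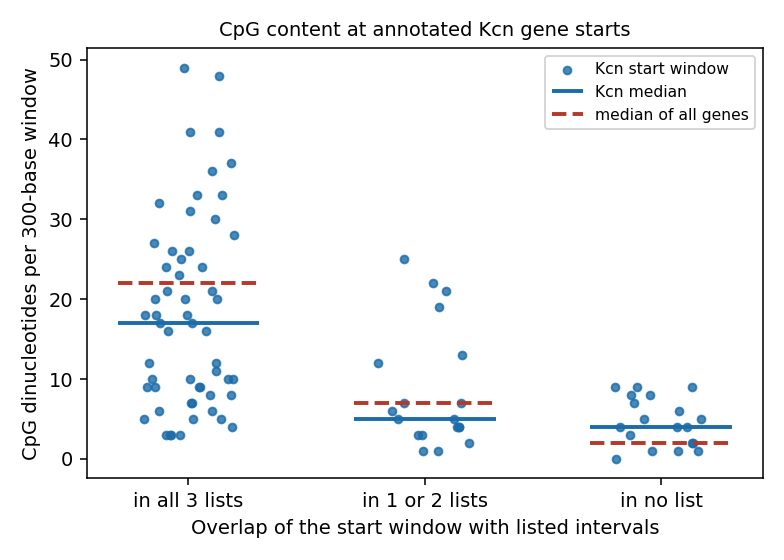
CpG dinucleotides in each 300-base window at an annotated Kcn start (points, spread sideways at random), by whether the window overlapped intervals in all 3 lists, in 1 or 2, or in none; solid lines are Kcn medians and dashed lines medians over all genes. The Kcn medians were 17, 5 and 4.

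In all, 4 motifs were counted on both strands of the windows, and a match is only a match of letters. The GC box GGGCGG was in 45 of 94 Kcn windows (47.9%, against 46.2% of all windows), and CCAAT was in 29 (30.9% against 38.2%). TATAAA was in 5 (5.32% against 12.6%). TTCAGCACC, the core letters of the element bound by the neuronal repressor REST, was in 1, at Kcnh6 (1.06% against 0.414%).

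Away from gene ends, Kcn regions divided almost evenly between the inside and the outside of genes. Of the 716, 320 were inside the gene (44.7%), 305 outside (42.6%) and 91 within 1 kb of an end (12.7%), against 43.8%, 40.7% and 15.5% of all regions assigned to a gene. Inside, 95 of 200 regions in 2iL were lost by 96 h (47.5%, against 51.4% of all regions inside a gene) and 79 of 184 at 96 h were gained (42.9% against 38.7%). Outside, 76 of 180 were lost (42.2% against 49.6%) and 87 of 191 gained (45.5% against 38.5%). Over 1 kb from an end in either place, losses were 171 of 380, 45.0% (39.9 to 50.2), and gains 166 of 375, 44.3% (39.2 to 49.5), beside 50.5% and 38.6% of all such regions. Over 1 kb from an end, the lost share was thus again below that of all regions and the gained share above it, with intervals that excluded 50.5% and 38.6%.

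Genes of other ion channels (Scn, Cacn, Hcn and Clcn; 53 genes, 447 regions) and of glutamate, GABA and glycine receptors (53 genes, 410 regions) were counted in the same way. Other channels lost 96 of 283 regions by 96 h, 33.9% (28.4 to 39.8), and gained 125 of 312, 40.1% (34.6 to 45.7). Receptors lost 100 of 249, 40.2% (34.0 to 46.5), and gained 119 of 268, 44.4% (38.4 to 50.6). More regions at 96 h than in 2iL were seen at 24 of the 52 other channel genes with a region and at 20 of the 53 receptor genes. Gained ends were 5 for other channels (13.2% of those listed at 96 h) and 8 for receptors (18.2%), so both sets, like the Kcn genes with 16.2%, were above the 5.71% over all genes. Both Kcn shares lay within the intervals of both sets, and a difference between the sets was not tested.

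The limit of 100 kb set which distant intervals were counted. Between 90 and 100 kb from a Kcn end lay 8, 7 and 10 intervals in the 3 lists, and between 100 and 110 kb lay 12, 9 and 10 that were left out. The nearest inside were at Kcnrg in 2iL (99.1 kb, fold 9.29), Kcnk2 at 48 h (99.9 kb, 4.45) and Kcnh1 at 96 h (98.0 kb, 6.47). The nearest outside were at Kcnh8 in 2iL (100.2 kb, 23.6) and at 48 h (100.3 kb, 9.83) and at Kcnb2 at 96 h (101.7 kb, 9.21).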

How the data were processed

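The study has 6 ATAC-seq samples of E14 cells, 2 per group in 3 groups (2iL, and 48 h and 96 h after its withdrawal). Tools named in the submitters' processing notes are BWA, Picard, SAMtools and bcl2fastq 2.20.0.422, and the build is mm10; what each did is not said. Which peak caller and limits were used, whether reads were shifted for the transposase, and how duplicates were treated is not given in the sources used here. All of these can change which weak peaks are listed. Per the labels, samples A and B of a group shared 1 deposited peak list, so the authors had combined replicates, and 0 columns holding single samples were left out. Each line of a deposited list gives an interval, a whole-number score (not used further) and, for a summit, a fold enrichment, which is a linear ratio, and a p-value on the −log10 scale. Fold and −log10 p are the authors' values.

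Where an interval had several summits, the one of highest −log10 p gave its values. Gene ends came from the RefSeq gene table of GRCm38.p6, the assembly of mm10, and gene starts from a RefSeq promoter table of the same build. Intervals were assigned by the distance from their midpoint to the nearest end of a protein-coding gene, up to 100 kb, and intervals of the 3 lists that overlapped by 1 bp or more were merged into regions. The depth of the libraries is unknown; a background per position was solved from fold and −log10 p of summits whose −log10 p was under 290, and their tag numbers came out whole (to 0.02) in 100% of cases. Shares have exact binomial 95% intervals (Python 3.11.15, SciPy 1.17.1, pandas 2.3.3, figures with Matplotlib 3.10.9). Counting was tested on simulated data.

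Genes were named by rule: the 12 with the most regions, the 8 with the largest net loss and the 8 with the largest net gain from 2iL to 96 h, those whose listed end changed between 2iL and 96 h, and Kcnk9; some genes that meet the rule are not reported here. Regions were named as the 5 with the highest fold among those lost, gained, found only at 48 h and found in all 3 lists over 1 kb from a gene end. Genes outside the rule (Kcna3, Kcna6, Kcnh7, Kcnj10, Kcnj16, Kcnk3, Kcns3, Kcnip3 and others beside them) were named after their values were seen, or hold such a region. Alternatives were the part of each list at or above the median −log10 p, lists of equal length, a larger overlap, a limit of 20 kb, the nearest gene body, the summit in place of the midpoint, leaving out 1 gene, and other distances to a gene end. The members and gene lists were chosen with earlier results of these data known.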

Additional observations from a re-analysis of the deposited data

How the results depend on the processing

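Of 68 alternative values for 11 results, 55 stayed within the counting interval of the value reported (gene counts within 1.5 times) and 13 did not. With only regions at or above the median −log10 p of their list, lost and gained Kcn shares were 15.5% and 13.3% from 2iL to 48 h (all regions 16.1% and 10.9%), 7.98% and 5.71% from 48 h to 96 h (8.56% and 4.80%) and 25.3% and 18.4% from 2iL to 96 h (27.0% and 15.0%). The voltage-gated shares, an alternative chosen after seeing the data, were then 19.1% and 21.7%. With lists of equal length the loss from 48 h to 96 h was 25.5% (all regions 24.95%). Within 20 kb of a gene end, 15.3% were gained from 48 h to 96 h (all 14.8%), and from 2iL to 96 h 32.9% were lost (37.5%) and 30.7% gained (27.0%), with 26.1% gained at voltage-gated genes. The Kcn share lost from 2iL to 96 h was below that of all regions, and the share gained above it, in the 7 alternatives named among the methods, but in the top 25% of the list by fold the lost share was above it (27.7% against 22.0%); the voltage-gated gain was above it in 6, all but the limit of 20 kb. Leaving out Kcnj6 (38 regions), or Kcnd3 (19) for the voltage-gated genes, moved no share out of its interval.

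No paired analysis was possible because each list combines samples A and B. Values without 1 replicate were not obtainable from these lists either. Regions of 1 list were weaker than those of all 3 lists (median fold 6.96 in 2iL against 9.54), and absence from a list does not show closed chromatin.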
